A study of Mus musculus with 2 samples.

Results

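Platelets and their precursors, the megakaryocytes, express a characteristic set of adhesion receptors, granule proteins and transcription factors, and 31 such genes were followed here in natural killer (NK) cells sorted from mouse liver. The members were listed by name from general knowledge of the lineage, with earlier results of these data known. Each was read from a probe set annotated to that gene alone, the brightest one by its mean log2 value across the arrays. Of the 31 genes, 29 had such a probe set, out of 18194 genes in all. Gp1ba, the von Willebrand factor-binding chain of the platelet glycoprotein Ib complex, and Serpine2, a protease inhibitor, had no probe set named for them alone and were not analysed here. RNA came from DX5- NK1.1+ CD3- cells on 1 array and from DX5+ NK1.1+ CD3- cells on 1 array, both sorted from livers of B6 wild-type animals that were naive. The antibody DX5 binds the integrin alpha 2 chain, NK1.1 is an NK cell receptor and CD3 is the complex that signals for the T cell receptor. How many animals stood behind each array, and their age, is not stated in the sources used. With n = 1 for each population there was no spread between samples, so no difference was tested and every fold describes these arrays only.

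Platelets are cell fragments without a nucleus that megakaryocytes release into the blood, and they carry megakaryocyte RNA. They adhere through the glycoprotein Ib-IX-V complex and integrins, are activated by collagen, thrombin and nucleotides, and then release chemokines and clotting proteins from alpha granules. Platelets circulate through the liver sinusoids and bind to leukocytes, for instance through P-selectin. Several of the listed genes are also used by other cells: Plek by many leukocytes, Vwf and Selp by endothelial cells, F13a1 and Thbs1 by macrophages, and Gata2 by mast cells and basophils.

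Intensities are linear MAS5 signals as the authors deposited them, and the log2 ratio is DX5- minus DX5+, so that a negative ratio means lower in DX5- cells. Each array's detection limit was the 95th percentile of its intensities over 147 probe sets of families with little expected use in these cells, such as olfactory receptors. The DX5- array had a limit of 76.2 and the DX5+ array a limit of 80.1 intensity units. A gene above its limit on 1 array only was given a lower bound for its fold, written "at least", with the other array set to its limit. Between probe sets of 1 gene the log2 ratio had an SD of 0.34 over 4412 genes, and 0.42 among the 1103 dimmest of them. That SD covers probe noise only, not animals, sorts or labellings. The 18 spike-in controls all read lower for DX5- cells (median log2 ratio -0.22), and the 15 NK cell marker genes on the array were above the limit on at least 1 array. Of those 15, 9 read lower in DX5- cells, a share of 60% near the 53.7% of all 18194 genes. Past 2-fold, 3 were lower (Eomes 8.09-fold, Itgam 5.73-fold and Prf1 2.89-fold lower) and 0 higher. Among all 10708 genes above a limit, 5.62% were lower and 3.78% higher by at least 2-fold. Ncr1, an NK receptor gene, read 2390 in DX5- cells against 1788 in DX5+ cells.

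Most of the platelet and megakaryocyte genes read lower in DX5- cells. Of the 29 members, 24 had the lower intensity in DX5- cells, a share of 82.8%, where 53.7% of all 18194 genes did. Their median log2 ratio as deposited was -1.23, against -0.062 over all genes. Because the members were listed with earlier results of these data known, these comparisons describe the list and are no test of it. Of the 29, 16 exceeded both limits and 4 exceeded neither. The DX5- limit alone was exceeded by 0 members, where 3.18% of all genes did so, and the DX5+ limit alone by 9 members, where 3.97% of all genes did so. A member that passed on the DX5+ array only had to be lower in DX5- cells, so counts over the passing members describe them and carry no further weight. Of the 25 that passed, 13 were lower by at least 2-fold in DX5- cells, where 5.62% of 10708 genes were, and 1 was higher by at least 2-fold, where 3.78% were. Among the 16 above both limits, 8 were at least 2-fold lower, against 5.12% of 9407 genes, and 1 was at least 2-fold higher, against 3.73%. At 4-fold, 4 of these 16 were lower, against 0.797% of genes, and 0 were higher, against 0.627%. The cells that this RNA came from cannot be read from bulk RNA. Fewer platelet-lineage cells or fragments in a sort, less of their RNA per cell, and use of these genes by other cells of the sort cannot be told apart.

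**Figure D1:**
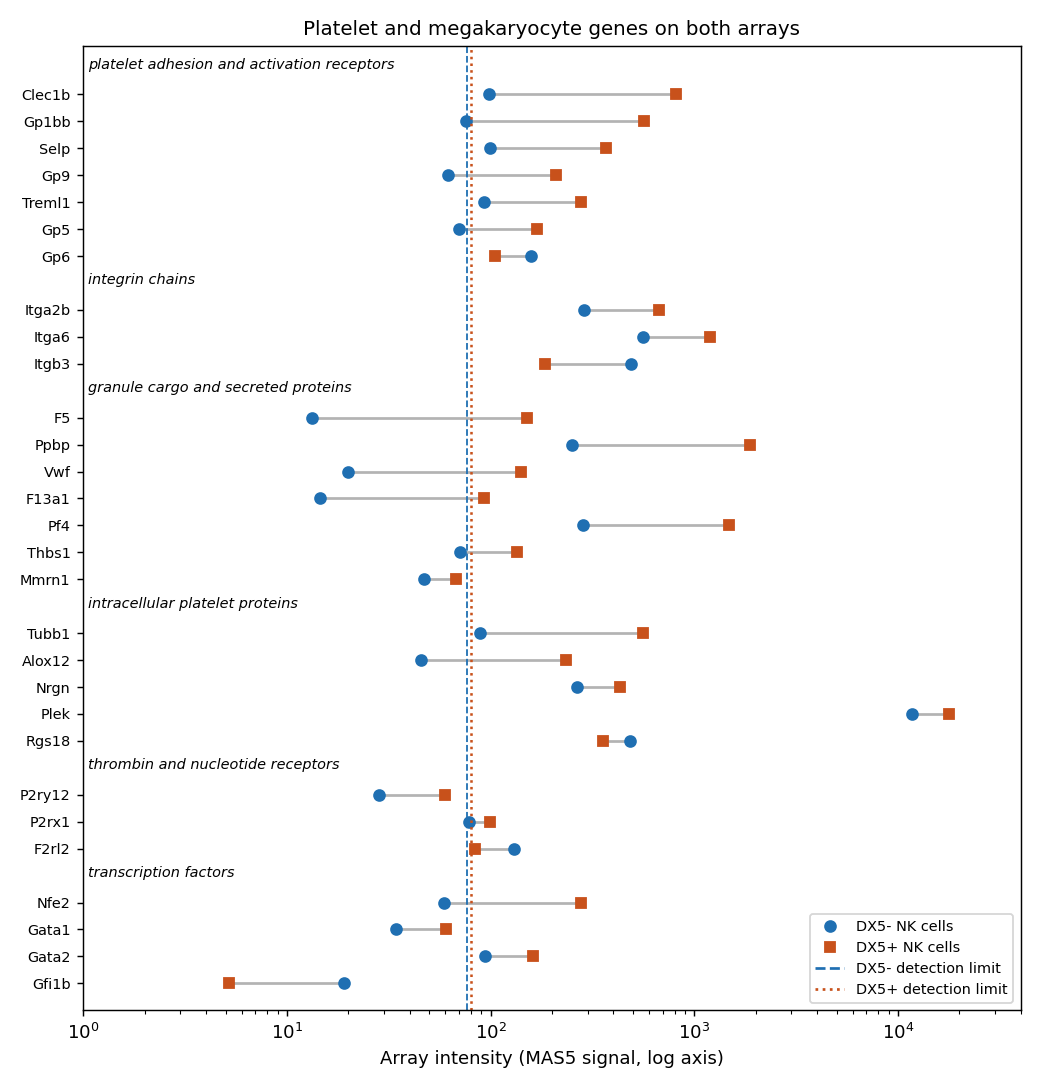
Intensity of each of the 29 members on a log axis, by role, with DX5- cells as blue circles, DX5+ cells as orange squares, and each array's detection limit as a dashed or dotted line; each point is 1 array. The DX5+ square lies to the right of the DX5- circle for 24 of 29 genes, and Gp6, Itgb3, Rgs18, F2rl2 and Gfi1b run the other way.

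Most receptors by which platelets adhere and are activated were lower in DX5- cells. All 7 on the array passed a limit, and 6 were at least 2-fold lower in DX5- cells, where 5.62% of all 10708 genes above a limit were. Of these, Gp1bb, Gp5 and Gp9 have bounds from the DX5+ array only, which had to be lower. Clec1b, the podoplanin receptor of platelets, which some liver endothelial and myeloid cells also carry, read 98.7 in DX5- cells against 815 in DX5+ cells, 8.26-fold lower. Its ratio was the 12th lowest of the 9407 genes above both limits. The von Willebrand factor receptor is built from Gp1ba, Gp1bb, Gp9 and Gp5. Gp1bb read 75.7 in DX5- cells, just under the limit, against 564 in DX5+ cells, at least 7.40-fold lower. Gp9 read 62.1 in DX5- cells against 209 in DX5+ cells, at least 2.75-fold lower. Gp5 read 69.9 in DX5- cells against 169 in DX5+ cells, at least 2.22-fold lower. By the probe sets used, the 3 measured chains of this complex were under the limit in DX5- cells and above it in DX5+ cells. The other probe set of Gp1bb was above both limits, with 93.9 in DX5- cells against 129 in DX5+ cells.

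The granule membrane receptors followed the same direction. Selp, which encodes P-selectin and is moved to the platelet surface on activation, read 99.5 in DX5- cells against 368 in DX5+ cells, 3.70-fold lower. Treml1, a receptor of alpha granules whose known expression is largely confined to platelets and megakaryocytes, read 92.3 in DX5- cells against 277 in DX5+ cells, 3.0-fold lower. Gp6, the platelet collagen receptor, ran the other way by less than 2-fold, with 157 in DX5- cells against 104.5 in DX5+ cells. Gp6 lies next to Ncr1, an NK receptor gene, in the RefSeq annotation of GRCm38.p6. Any link between the readings of these genes was not tested. Both Gp6 values were within 100 intensity units of their limits.

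Integrin chains went in both directions. Itga2b and Itgb3 encode the partners of the platelet fibrinogen receptor. Itga2b, the chain specific to the platelet and megakaryocyte lineage and its early progenitors, read 287 in DX5- cells against 675 in DX5+ cells, 2.35-fold lower. Itgb3, which also pairs with the integrin alpha V chain on other cells, read 492 in DX5- cells against 185 in DX5+ cells, 2.66-fold higher. No other member was past 2-fold higher in DX5- cells. Its other probe set, below both limits, gave nearly the same log2 ratio (1.42 beside 1.41), but the mean over both probe sets, with the DX5+ value at its limit, gave 0.81, short of 2-fold. Itga6, a laminin receptor chain of platelets and many other cells, read 562.5 in DX5- cells against 1190 in DX5+ cells, 2.12-fold lower. The 2 chains of the fibrinogen receptor thus ran in opposite directions on these arrays.

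Among granule cargo and secreted proteins, the chemokines were the brightest members. Ppbp and Pf4 encode the main platelet chemokines. Ppbp read 251 in DX5- cells against 1868 in DX5+ cells, 7.45-fold lower. Pf4 read 286 in DX5- cells against 1475 in DX5+ cells, 5.16-fold lower. Both were clearly above the limit on both arrays, and their ratios were the 18th and 39th lowest of 9407. The pair are neighbours on chromosome 5, between the chemokine genes Cxcl5 and Cxcl3 in the RefSeq annotation. Of these flanking genes, Cxcl5 was below both limits, and Cxcl3 read 122 in DX5- cells against 260.1 in DX5+ cells, a log2 ratio of -1.10.

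The clotting and matrix proteins were dim. F5, which encodes coagulation factor V, read 13.2 in DX5- cells against 150.2 in DX5+ cells, at least 1.97-fold lower. Its other probe set, also above the DX5+ limit only, read 3.7 in DX5- cells against 174.7 in DX5+ cells. With the mean over both probe sets the log2 bound of F5 was -1.09, past 2-fold. F5 lies next to Selp on chromosome 1 in the RefSeq annotation. Vwf, the von Willebrand factor gene of megakaryocytes and endothelium, read 19.9 in DX5- cells against 141 in DX5+ cells, at least 1.86-fold lower. Thbs1, thrombospondin, read 70.5 in DX5- cells against 134.5 in DX5+ cells, at least 1.77-fold lower. F13a1, the clot-crosslinking factor XIII subunit of platelets and macrophages, read 14.5 in DX5- cells against 93.2 in DX5+ cells, at least 1.22-fold lower. These 4 genes were above the limit on the DX5+ array only, and because that array's values are near the limit, their bounds cannot reach far. Mmrn1, multimerin, which stores factor V in granules, was below both limits at 47.0 in DX5- cells against 67.3 in DX5+ cells, so it has no fold.

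Of the 5 intracellular proteins, 2 were at least 2-fold lower in DX5- cells, Tubb1 and Alox12, where 5.62% of all 10708 genes above a limit were. Tubb1, the beta tubulin of the platelet marginal band, read 88.2 in DX5- cells against 559 in DX5+ cells, 6.34-fold lower. Alox12, a platelet lipoxygenase, read 45.7 in DX5- cells against 234 in DX5+ cells, at least 3.07-fold lower. It passed on the DX5+ array only and so had to be lower. Its log2 bound of -1.62 became -0.72 with a limit at the 99th percentile and -0.44 with the mean over its probe sets, both short of 2-fold. Nrgn, neurogranin, a calmodulin-binding protein found in neurons and platelets, read 266 in DX5- cells against 434 in DX5+ cells, 1.63-fold lower. Plek, pleckstrin, a protein kinase C substrate of platelets and leukocytes, was by far the brightest member, with 11751 in DX5- cells against 17838 in DX5+ cells, 1.52-fold lower. Plek made up most of the summed intensity of the members, which was 15777 in DX5- cells against 28658 in DX5+ cells. Without it the sum was 4026 in DX5- cells against 10820 in DX5+ cells, 2.69-fold apart. Rgs18, a regulator of G protein signalling in platelets and other blood cells, read 484 in DX5- cells against 358 in DX5+ cells, a log2 ratio of 0.43, about the size of the probe-set SD.

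Receptors for thrombin and nucleotides gave no difference of 2-fold. F2rl2, a protease-activated receptor, read 130.1 in DX5- cells against 84.1 in DX5+ cells, but its other probe set, below both limits, ran the opposite way with a log2 ratio of -0.89. P2rx1, the ATP-gated channel of platelets, read 78.3 in DX5- cells against 98.8 in DX5+ cells. The other P2rx1 probe set, below both limits, read 36.3 in DX5- cells against 79.8 in DX5+ cells. P2ry12, the ADP receptor that antiplatelet drugs block, was below both limits at 28.2 in DX5- cells against 59.7 in DX5+ cells. At those levels no difference in P2ry12 was measurable.

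Of the megakaryocyte transcription factors, 2 passed a limit. Nfe2, a leucine zipper factor needed for platelet release, read 59.2 in DX5- cells against 278 in DX5+ cells, at least 3.65-fold lower. Gata2, a factor of progenitors, megakaryocytes, mast cells and basophils, read 94.2 in DX5- cells against 162 in DX5+ cells, 1.72-fold lower. The other Gata2 probe set, below both limits, read 3.3 in DX5- cells against 74.8 in DX5+ cells. Gata1, the lineage regulator shared with red cell precursors, was below both limits at 34.4 in DX5- cells against 60.4 in DX5+ cells. Gfi1b, a repressor of the same lineages, was below both limits at 19.1 in DX5- cells against 5.2 in DX5+ cells. Thus 1 of the 2 factors that passed was at least 2-fold lower, where 5.62% of all 10708 genes above a limit were. That factor, Nfe2, passed on the DX5+ array only and so had to be lower. The other 2 of the 4 factors were above neither limit.

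**Figure D2:**
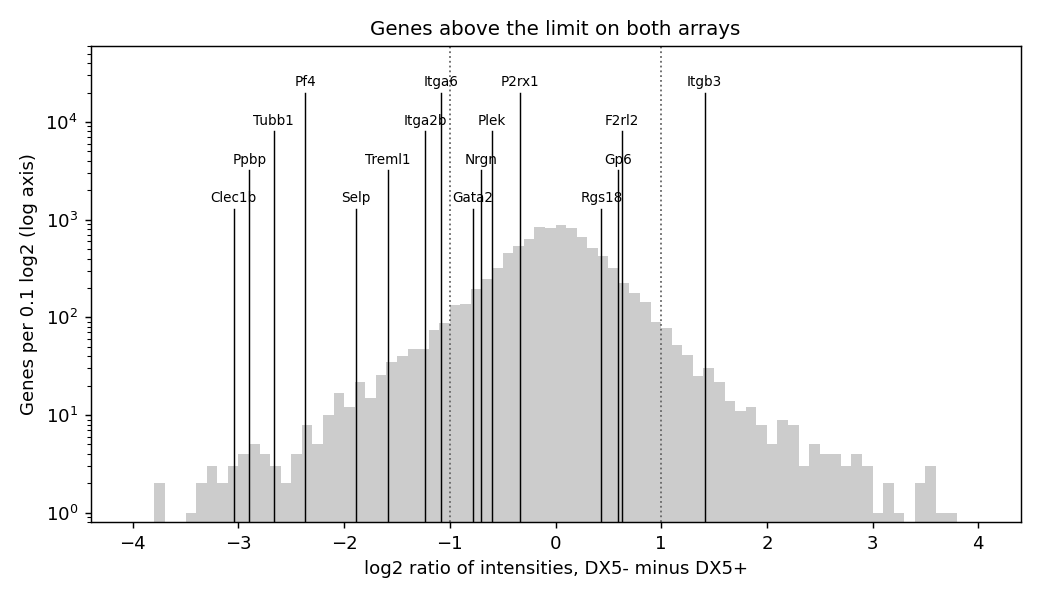
Distribution of the log2 ratio (DX5- minus DX5+) of the 9407 genes above both limits in bins of 0.1, with a log axis of gene counts and the 16 members above both limits as labelled lines; dotted lines mark 2-fold. Clec1b, Ppbp, Tubb1 and Pf4 lie beyond -2, and Itgb3 is the only labelled member beyond 1.

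For 13 members several probe sets were on the array, which gives a second reading of the same RNA. In 9 genes all probe sets were lower in DX5- cells, in 2 genes (Itgb3 and Rgs18) all were higher, and in 2 genes (F2rl2 and Mmrn1) they ran both ways. Of all 44 probe sets of the members, 36 were lower in DX5- cells. By the brightest probe set of each gene, 53.7% of all 18194 genes were lower. The same counts were not made over all probe sets or all genes with several, and several member probe sets were below both limits. The 3 probe sets of Selp had log2 ratios of -2.39 to -1.89, those of Itga6 -1.41 and -1.08, and those of Plek -0.68 to -0.60. Gp1bb agreed in direction but not in size, with -2.90 for the brighter probe set and -0.46 for the other. A further probe set is annotated to both Gp1bb and its neighbour Septin5, and it was 2.64-fold lower in DX5- cells. Another is annotated to both Thbs1 and Pald1 and was 3.63-fold lower.

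**Figure D3:**
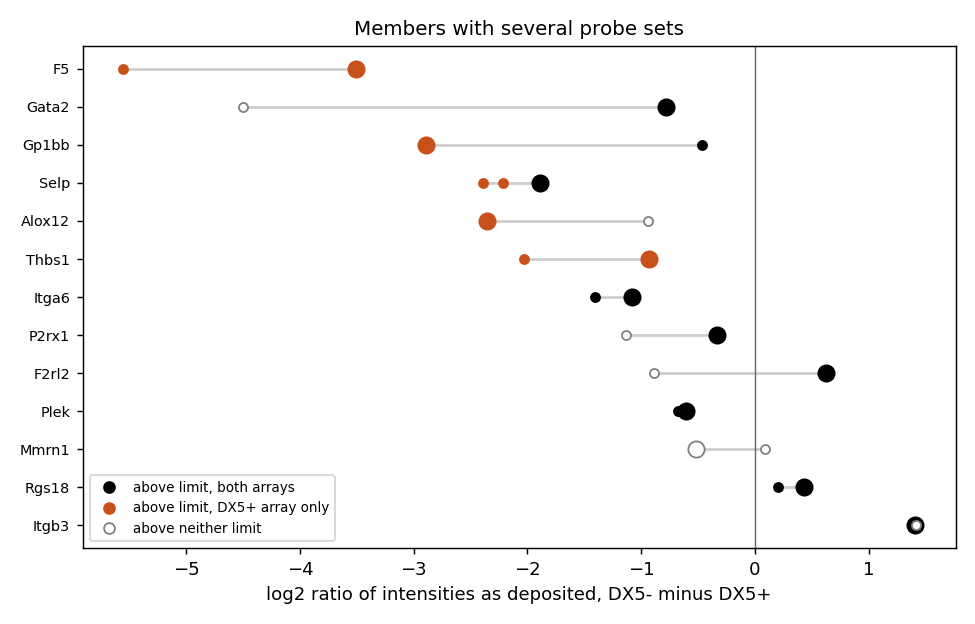
Log2 ratio (DX5- minus DX5+) of every probe set of the 13 members with more than 1, as deposited; large points are the probe sets used, black is above the limit on both arrays, orange on the DX5+ array only, and open points on neither. All probe sets of 9 genes lie left of 0, and those of Itgb3 and Rgs18 lie right of it.

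The promoters of the 5 members with the largest folds that have an entry in the promoter table are printed because these genes read low together in DX5- cells. Megakaryocyte promoters are known for pairing sites of GATA and ETS family factors, so these letters were searched on both strands. The GATA search took AGATAA, then AGATAG, then TGATAA and finally TGATAG. The ETS search took AGGAAG and then CGGAAG, and a base could count for both. Sequences are from RefSeq, build GRCm38.p6, from 250 bases before to 50 after the annotated start, 5′ to 3′ on the gene's strand, with capitals at every match (on the minus strand a match shows as its reverse complement).
Clec1b (chr6:129397047-129397346, plus strand): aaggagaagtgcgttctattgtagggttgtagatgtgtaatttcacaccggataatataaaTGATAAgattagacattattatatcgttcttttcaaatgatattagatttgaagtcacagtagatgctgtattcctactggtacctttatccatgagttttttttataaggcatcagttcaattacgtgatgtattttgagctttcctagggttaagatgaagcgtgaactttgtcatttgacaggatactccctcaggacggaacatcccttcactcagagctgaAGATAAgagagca
Ppbp (chr5:90768268-90768567, plus strand): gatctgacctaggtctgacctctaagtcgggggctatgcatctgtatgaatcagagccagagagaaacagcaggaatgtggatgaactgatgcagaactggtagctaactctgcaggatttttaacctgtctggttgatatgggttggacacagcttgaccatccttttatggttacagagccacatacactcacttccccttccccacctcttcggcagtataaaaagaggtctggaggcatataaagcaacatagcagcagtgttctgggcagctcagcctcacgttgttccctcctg
Gp1bb (chr16:18622354-18622653, minus strand): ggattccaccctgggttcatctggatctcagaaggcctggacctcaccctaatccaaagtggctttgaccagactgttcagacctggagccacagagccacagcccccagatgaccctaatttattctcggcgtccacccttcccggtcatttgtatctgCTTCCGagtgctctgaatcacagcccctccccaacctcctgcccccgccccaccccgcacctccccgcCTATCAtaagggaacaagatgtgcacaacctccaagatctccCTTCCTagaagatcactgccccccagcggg
Tubb1 (chr2:174450345-174450644, plus strand): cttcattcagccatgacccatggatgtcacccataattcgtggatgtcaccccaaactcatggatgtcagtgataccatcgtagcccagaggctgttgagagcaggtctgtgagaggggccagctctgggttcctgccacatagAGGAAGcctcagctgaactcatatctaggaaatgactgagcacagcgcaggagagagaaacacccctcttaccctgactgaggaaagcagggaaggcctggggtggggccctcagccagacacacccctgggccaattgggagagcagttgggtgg
Pf4 (chr5:90772185-90772484, plus strand): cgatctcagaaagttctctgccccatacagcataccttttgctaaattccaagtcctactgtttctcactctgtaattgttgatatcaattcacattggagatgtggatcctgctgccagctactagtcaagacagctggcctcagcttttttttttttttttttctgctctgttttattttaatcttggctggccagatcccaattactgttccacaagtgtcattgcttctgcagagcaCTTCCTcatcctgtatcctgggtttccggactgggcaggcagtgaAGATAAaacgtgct
Gp1bb held 1 GATA and 2 ETS matches, Pf4 1 of each, Clec1b 2 GATA matches, Tubb1 1 ETS match and Ppbp neither. In Clec1b a match began 189 bases before the annotated start. Of the 23 measured members with an entry (the first, where a gene had several), 9 (39.1%) held a GATA match and 12 (52.2%) an ETS match, against 29.8% and 46.5% of all 32851 promoters in the table. Both kinds occurred in 4 of the 23, or 17.4%, against 12.6% of all promoters. A match describes letters in this window only.

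The wider platelet pathway was read from a second list of 130 genes for receptors, signalling, granules, cytoskeleton and transcription factors, of which 123 were on the array and 97 passed a limit. Of these 97, 19 were lower by 2-fold or more in DX5- cells, where 5.62% of all 10708 detected genes were. Another 3 were higher by 2-fold or more, where 3.78% were. Of the 97, 11 passed on the DX5+ array only and had to be lower, so these counts carry no further weight. Among the 83 above both limits, 15 were at least 2-fold lower, against 5.12% of 9407 genes, and 3 at least 2-fold higher, against 3.73%. The 3 higher make a share close to that of all genes. The 97 had a median log2 ratio of -0.18, against -0.020 over all 10708 detected genes. With scaling to the spike-in controls their median was 0.034, when the median of detected genes was 0.19. Which cells of the sorts used these genes was not tested.

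Among other receptors, Itga2 encodes the chain that DX5 binds, which pairs with the product of Itgb1 as a collagen receptor of platelets as well as of NK cells. Itga2 read 29.0 in DX5- cells against 105 in DX5+ cells, at least 1.38-fold lower, and Itgb1 read 1921 in DX5- cells against 4158 in DX5+ cells, 2.16-fold lower. Tbxa2r, the thromboxane receptor of platelets, read 61.5 in DX5- cells against 161 in DX5+ cells, at least 2.11-fold lower. In this group of 14 detected genes, 4 were past 2-fold lower and 0 past 2-fold higher, where 5.62% and 3.78% of all detected genes were. Of the 14, 4 passed on the DX5+ array only and had to be lower. Among the 8 above both limits, 2 were past 2-fold lower, against 5.12% of 9407 genes.

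Signalling genes included the largest fold among the genes of the second list that were above both limits. Gng11, a G protein gamma chain of platelets and other cells, read 215 in DX5- cells against 1866 in DX5+ cells, 8.67-fold lower. Rasa3, which restrains the integrin switch Rap1 in platelets, read 703 in DX5- cells against 4572 in DX5+ cells, 6.50-fold lower. Lat, the adaptor below Gp6 in platelets and the T cell receptor in T cells, read 2933 in DX5- cells against 1150.1 in DX5+ cells, 2.55-fold higher. In this group of 24 detected genes, 4 were past 2-fold lower and 2 past 2-fold higher, where 5.62% and 3.78% of all detected genes were.

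Granule and cytoskeletal genes followed. The growth factor gene Pdgfb read 385 in DX5- cells against 1126 in DX5+ cells, 2.92-fold lower, and Rab32, a GTPase of dense granule formation, read 89.4 in DX5- cells against 253.5 in DX5+ cells, 2.84-fold lower. Among 23 detected granule genes, 4 were past 2-fold lower and 0 past 2-fold higher, where 5.62% and 3.78% of all detected genes were. Myl9, a myosin light chain of megakaryocytes and smooth muscle, read 105 in DX5- cells against 763.5 in DX5+ cells, 7.28-fold lower. Pdlim1 was 3.87-fold lower, with 530.4 in DX5- cells against 2054 in DX5+ cells, while Actn1, alpha actinin, was 3.22-fold higher, with 969 in DX5- cells against 301 in DX5+ cells. Among 24 detected cytoskeletal genes, 6 were past 2-fold lower and 1 past 2-fold higher, against the same shares of all detected genes. Of the 24, 5 passed on the DX5+ array only and had to be lower. Among the 19 above both limits, 4 were past 2-fold lower, against 5.12% of 9407 genes, and 1 past 2-fold higher, against 3.73%. Among 12 detected transcription factors, 1 was past 2-fold lower, Mef2c, with 239.5 in DX5- cells against 736 in DX5+ cells. A count of 1 in 12 is close to the 5.62% of all detected genes.

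**Figure D4:**
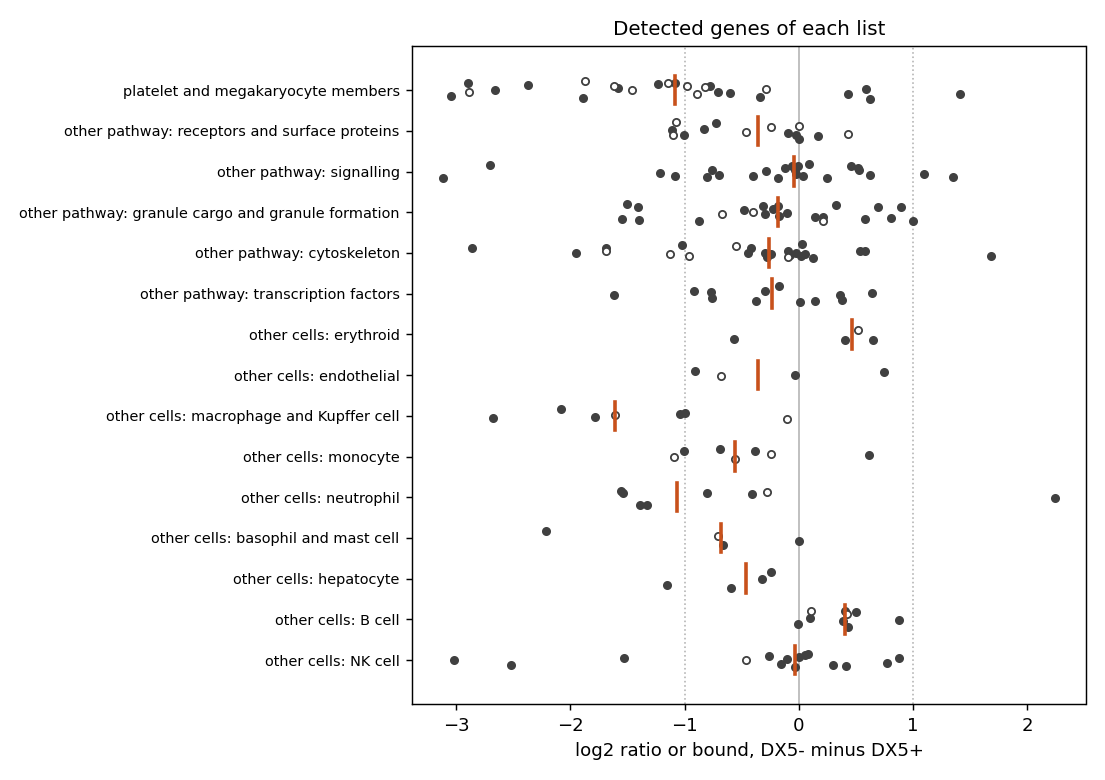
Log2 ratio or bound (DX5- minus DX5+) of every detected gene, by list; filled points are above both limits, open points are bounds, orange bars are list medians and dotted lines mark 2-fold. The median of the members is -1.08, and the 5 groups of other pathway genes have medians of -0.36 to -0.044. Neutrophil genes have a median of -1.07 and macrophage genes of -1.61.

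Markers of other cells that share some of these genes moved as follows, where 5.62% of all detected genes were at least 2-fold lower and 3.78% higher. Of 16 endothelial markers, 4 passed a limit and 0 were 2-fold apart, with a summed intensity of 847 in DX5- cells against 1002 in DX5+ cells. The 4 that passed were Eng with 230 in DX5- cells against 137 in DX5+ cells, Kdr with 112 in DX5- cells against 115 in DX5+ cells, Stab2 with 80.5 in DX5- cells against 151 in DX5+ cells, and Egfl7, at least 1.60-fold lower. The other 12 were below both limits. Of these, the defining marker Cdh5 was at 23.3 in DX5- cells against 52.4 in DX5+ cells, and Tie1 read 1.5 in DX5- cells against 2.0 in DX5+ cells. Of 13 red cell markers on the array, 4 passed a limit and 0 were 2-fold apart, with a summed intensity of 1254 in DX5- cells against 1039 in DX5+ cells, so it was not lower in DX5- cells. Of 18 macrophage and Kupffer cell markers on the array, 7 passed a limit and 5 were at least 2-fold lower. These 5 were Lyz1, Lyz2, Mpeg1, Csf1r and Cd68, which many myeloid cells express. Csf1r passed on the DX5+ array only and so had to be lower. Among the 5 markers above both limits, 4 were at least 2-fold lower, against 5.12% of 9407 genes. The remaining 2 that passed were Adgre1, above both limits, and Slc40a1, above the DX5+ limit only, which had to be lower. Adgre1 read 77.1 in DX5- cells against 153.6 in DX5+ cells, 1.99-fold lower. Slc40a1 read 50.4 in DX5- cells against 81.8 in DX5+ cells, at least 1.07-fold lower. The other 11 were below both limits, among them the Kupffer cell genes Clec4f, Timd4, Vsig4, Cd5l and Marco and the complement genes C1qa, C1qb and C1qc. The list had a summed intensity of 1759 in DX5- cells against 6383 in DX5+ cells, and its gene Lyz1 was 6.40-fold lower (323 in DX5- cells against 2070 in DX5+ cells). Of the 12 neutrophil markers, 8 passed, with a median log2 ratio of -1.07, close to the -1.08 of the detected members. The 4 that were at least 2-fold lower were Ngp (2.94-fold), S100a9 (2.90-fold), Lcn2 (2.62-fold) and S100a8 (2.51-fold). The matrix metalloproteinase gene Mmp9 alone was at least 2-fold higher, by 4.74-fold (932 in DX5- cells against 197 in DX5+ cells). The 12 had a summed intensity of 4957 in DX5- cells against 10364 in DX5+ cells. Of the 10 basophil and mast cell markers, 4 passed and 1, Cpa3, was at least 2-fold lower, with 108.5 in DX5- cells against 504 in DX5+ cells. All 7 monocyte markers passed a limit and 2 were at least 2-fold lower, with a summed intensity of 2147 in DX5- cells against 3262 in DX5+ cells. Of these 7, 3 passed on the DX5+ array only and had to be lower, and 1 of the 4 above both limits was at least 2-fold lower. Hepatocyte markers summed to 1612 in DX5- cells against 2335 in DX5+ cells, and B cell markers to 2455 in DX5- cells against 1798 in DX5+ cells. The part of any of these cells in the ratios of the members was not tested.

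With a stricter limit, at the 99th percentile, 8 rather than 13 members were past 2-fold lower in DX5- cells, as Gp5, Gp9, Treml1, Alox12 and Nfe2 no longer were, and the 22 members that then passed had a median log2 ratio of -0.71. With spike-in scaling, 708 of all genes were past 2-fold higher and 393 past 2-fold lower in DX5- cells, against 405 higher and 602 lower as deposited, while 11 members were lower, without Gp5 and Itga6, and 1 higher. The sign of every detected member's ratio was the same as deposited, after median centring, after quantile normalization and after spike-in scaling.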

How the data were processed

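Total RNA of 2 sorted populations was labelled with biotin and hybridised to 1 Affymetrix array each, per the labels' protocols. The authors deposited 1 linear intensity per probe set, made with MAS5 per the submitters' processing notes; its settings are not stated in the sources used. All 45101 probe sets were read, of which 34958 had 1 gene symbol in the platform annotation, 932 several and 9211 none. Of the single symbols, 34754 matched a RefSeq table of GRCm38.p6 by gene identifier. Values were taken to log2 with no offset or further scaling (Python 3.11.15, pandas 2.3.3, numpy 2.4.6).

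The families behind the limit were the olfactory, taste and vomeronasal receptors, opsins, lens crystallins and keratin-associated proteins. Crybg1 to Crybg3, Cryab and Opn3 were left out of them after their values were seen. Where a bound would have had the opposite sign, the ratio was taken as 1. No p-value was computed. Ratio steps were tested on simulated data, with changes placed only in genes well above the limits. The bounds and the values below a limit were therefore not tested in that way. The members, lists and alternatives were chosen with earlier results of these data known. All members are named. Of other lists, up to 4 detected genes with the largest ratio could be named, plus Itga2. Actn1, Cdh5, Tie1, Ncr1, Cd68, Adgre1, Slc40a1, S100a8 and the named macrophage genes below both limits were chosen after their values were seen. Cxcl5 and Cxcl3 were named as the genes beside Ppbp and Pf4. Precision is limited by the number of arrays.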

Additional observations from a re-analysis of the deposited data

How the results depend on the processing

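No paired analysis was possible because each population had 1 array, and no replicate could be left out. Members past 2-fold lower in DX5- cells numbered 13 as reported and 8 with a limit at the 99th percentile (141.7 for DX5- cells, 123 for DX5+ cells), when fewer genes pass and bounds shrink by construction; their median log2 ratio was then -0.71 in place of -1.08. Under the other 9 alternatives the count was 11 to 17. With no detection limit, 2 members were at least 2-fold higher, with the mean over probe sets 0, against 1 as reported. Of the other platelet pathway genes, 34 were at least 2-fold lower and 5 higher with no detection limit, where 15.6% and 10.4% of all genes were. With spike-in scaling 12 were lower and 6 higher, where 3.67% and 6.61% of all genes were, against 19 lower and 3 higher as reported. The log2 ratios of named genes were recomputed 272 times; 230 moved by less than the probe-set SD of 0.34, 42 moved by more and 0 of the ratios past 2-fold changed sign. Bounds moved most: over all settings F5 ran from -3.51 to -0.084, Vwf from -2.83 to 0, F13a1 from -2.68 to -0.073 and Alox12 from -2.36 to -0.44, while Ppbp ran from -2.90 to -2.67. Keeping Crybg1 to Crybg3, Cryab and Opn3 among the families behind the limit, an alternative added after seeing the data, gave limits of 98.4 for DX5- cells and 107 for DX5+ cells, with 12 members past 2-fold lower. Intensities near the limit, where most members lie in DX5- cells, carry little information on size.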
